A study of Nicotiana tabacum and Solanum tuberosum subsp. andigenum and Nicotiana sylvestris with 28 samples.

Results

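On 3 arrays, leaf RNA was compared in Nicotiana sylvestris, a wild tobacco that flowers only in long days (LD), after 15 days of LD that followed growth in short days (SD). These 3 arrays are all those of the 28 in the series that the labels give to this species and this day, and they were chosen by their titles and channel descriptions. Cy3 carried RNA of plants kept for 56 days in SD (8 h of light), and Cy5 carried RNA of plants given 41 days of SD and then 15 days of LD (16 h of light). All plants were grown at 22 °C, with light of 80 μE in LD and 160 μE in SD, and all were harvested 14 h after the start of the photoperiod. By these settings the leaves in LD were still lit, 2 h before dusk, and the leaves in SD had been dark for 6 h (the sample labels give 0 h and 8 h). Day length, irradiance and lit against dark leaves therefore cannot be told apart in any ratio below. The wild species carried no transgene, the leaves were whole organs, and the methods name 3 independent biological samples per treatment. Whether arrays of different days shared SD samples is not stated. LD and SD were never exchanged between the dyes in N. sylvestris.

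Plants read day length in the leaf, where phytochromes and the circadian clock set the activity of CONSTANS-like regulators and of the mobile flowering signal that travels to the shoot tip. N. sylvestris is a long-day plant, whereas the tobacco line Maryland Mammoth (MM) flowers only in SD and cultivar Hicks flowers in either. Light also sets the daily filling and emptying of leaf starch. Methionine and S-adenosylmethionine, whose enzymes are described below, feed methylation, lignin and ethylene synthesis.

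RNA of the tobacco was hybridised to spotted potato cDNA, so a ratio reports whatever transcripts of N. sylvestris bind a potato clone, and copies of a gene family share a signal. All values are log2 LD/SD ratios, averaged over the spots of a clone. A ratio above 0 means more transcript in LD, where more cells of a type and more RNA per cell cannot be told apart, and the deposited table holds no spot brightness, hence no expression level and no test against background. The deposit does not say which way its ratios run. Cy3 over Cy5 was taken as likely, because genes of the potato arrays then have the direction given in the study's text, and the N. sylvestris ratios were turned to LD/SD. The potato repeat with exchanged dyes did not run this way if its partner did, as described with the dye term below. The titles of the N. sylvestris arrays name the reverse transfer, but the channel descriptions and the study's methods name the one used here.

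The replicates were unequal. A value was present for 4873, 4264 and 4503 clones in replicates 1, 2 and 3, against 8922 to 9887 clones on the potato arrays other than the exchanged-dye repeat, and 3028 clones had a value in all 3. The SD of the ratios was 0.95 in replicate 1, 0.441 in replicate 2 and 0.574 in replicate 3. Both spots of a clone correlated with an r of 0.947, 0.714 and 0.879. Across clones, replicate 1 correlated with replicates 2 and 3 at 0.412 and 0.599, and replicates 2 and 3 correlated at 0.530. Replicate 1 was closer to the array of the same number after 1 LD (r of 0.819) than to the other arrays of its own day, and it ran against replicates 2 and 3 of 1 LD (r of -0.419 and -0.309). Since replicate 1 had the widest ratios, the mean of replicates 2 and 3 is given for each clone of a named gene called below and for a few other clones.

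Leaves after 15 LD had more clones raised in LD than in SD. Among 3028 clones, 94 were at least 2-fold higher in LD (3.10% of those tested) and 20 at least 2-fold higher in SD (0.661%). The test was limma's, with Benjamini-Hochberg adjustment over all clones tested. Calls required a p no higher than 0.05, an adjusted p no higher than 0.1 and a mean ratio of at least 1 in size, and a clone is said to have passed where both p limits were met. Of all clones, 105 passed towards LD (3.47%) and 25 towards SD (0.826%), 163 (5.38%) had a mean ratio of 1 or more, 37 (1.22%) had one of -1 or less, and 781 (25.8%) had an unadjusted p of 0.05 or less. All 94 and all 20 had the same sign in 3 of 3 replicates, which the call on these same replicates nearly requires. For 25 and 8 of them every replicate reached 1 in size. Clones called towards LD had a median mean ratio of 1.41, or 2.66-fold, and those called towards SD one of -1.35, or 2.55-fold. Over all clones tested it was 0.03, and 889 clones (29.4%) were above 0 in all replicates against 726 (24.0%) below 0. The smallest adjusted p was 0.0501, so that none of these clones would pass 0.05.

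Replicate 1 carried much of the size of these changes. It was the largest in size for 85 of the 94 clones higher in LD and for 16 of the 20 higher in SD, with medians of 2.11 and -1.81. Replicate 2 was the smallest for 70 and 14 of them, with medians of 0.90 and -1.01, and replicate 3 had medians of 1.31 and -1.24. Without replicate 1 no clone was called (381 had an unadjusted p of 0.05 or less towards LD and 299 towards SD, of 3275), and the smallest adjusted p was 0.165. Of the 114 clones, which were chosen with these replicates among the 3, 67 had a mean of at least 1 in size in replicates 2 and 3. Without replicate 2 the counts were 329 and 129, and without replicate 3 they were 134 and 30. In both of these fits clones of unlike spread had nearly the same standard error, so p followed the mean ratio. Their counts therefore cannot be set against those of the other fits. The methods' t-test, run here on the 3 arrays of this day whereas the study pooled both days, called no clone with a q-value or with Benjamini-Hochberg adjustment (157 towards LD and 174 towards SD had an unadjusted p of 0.05 or less).

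**Figure D1:**
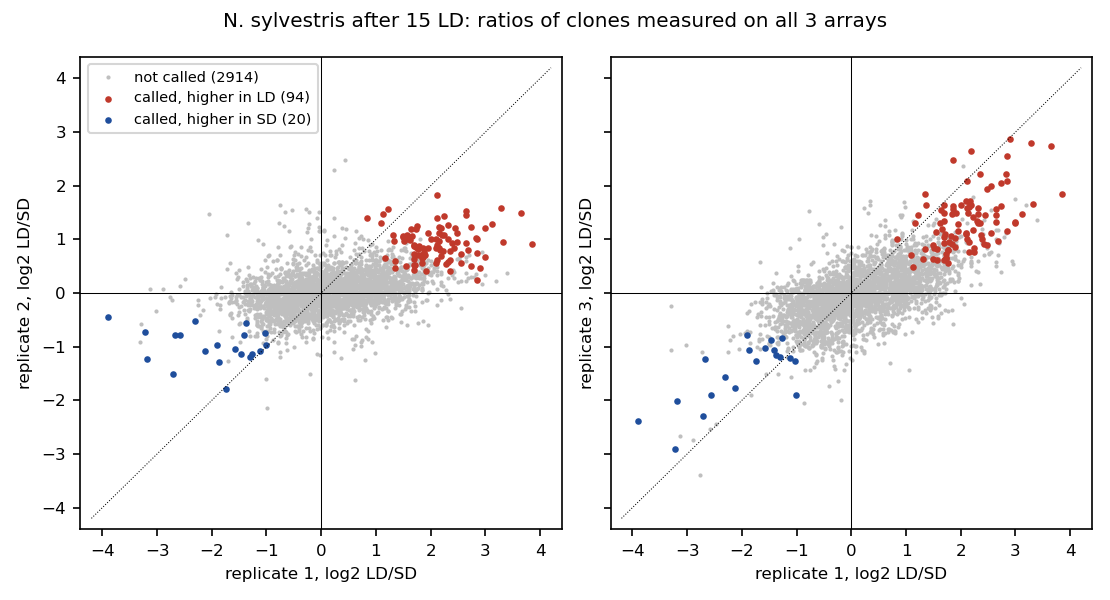
Log2 LD/SD ratios of 3028 clones in replicate 1 (horizontal axis) against replicate 2 (left) and replicate 3 (right), with clones called higher in LD in red (94), clones called higher in SD in blue (20), all others in grey and the line of equal ratios dotted. The called clones share a sign in all panels, as the call on these replicates nearly requires. Most of them lie between the dotted line and the horizontal axis because their ratio in replicate 1 is the larger.

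A gene symbol is known for 451 of the 3028 clones, and for 81 of these, from 48 genes, it is more than a locus number. Of the 94 clones higher in LD, 35 carry a symbol, and 5 of these are named genes. They are GBSS, VPE2, METK1 (2 clones) and MS. None of the 20 clones higher in SD carries a symbol. The called shares were 6.17% of the 81 named clones, 8.11% of clones with a locus number and 2.29% of clones without a symbol towards LD, and 0.776% of clones without a symbol towards SD. Of the 81 named clones, 40 were above 0 in every replicate, 10 below 0 in every replicate and 31 of mixed sign, with a median mean ratio of 0.43. At the unadjusted p, 28 of the 81 passed towards LD and 5 towards SD, beside 16.2% and 9.61% of all clones tested.

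A starch gene had the largest mean ratio among the named clones. GBSS, the granule-bound starch synthase that makes amylose, had ratios of 3.85, 0.92 and 1.85 in replicates 1, 2 and 3. Its mean of 2.21 (standard error 0.49, n = 3, adjusted p = 0.0869) is a 4.61-fold higher level in LD, and the mean of replicates 2 and 3 was 1.38. The value in replicate 1 is coarse, since the deposited ratios move in steps of 0.01 and 1 step at this ratio is 0.21 log2 units wide. R1, the glucan water dikinase that phosphorylates starch and starts its breakdown, was measured by 2 clones. They had 2.79, 0.30 and 1.05 (mean 1.38, adjusted p = 0.129) and 2.19, 0.20 and 0.79 (mean 1.06, adjusted p = 0.151), above 0 in all replicates but not passed. AMYA1, an alpha-amylase, had 2.56, -0.29 and 1.56 (mean 1.27, adjusted p = 0.163), with replicate 2 on the other side of 0. So 1 of 4 clones of the starch and sucrose list passed towards LD and none towards SD, with a median of 1.33, beside 3.47% of all clones passed towards LD and a median of 0.03. STUGE51 and STUGE45, UDP-glucose epimerases that link UDP-glucose and UDP-galactose, lacked values in all 3 replicates. STUGE51 had -0.16 in replicate 1 and -0.64 in replicate 3 at one clone and 0.07 in replicate 1 at the other, and STUGE45 had 1.32 in replicate 2.

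Of 15 clones of the methionine cycle, 3 passed towards LD, 2 of METK1 and 1 of MS. METK1 encodes S-adenosylmethionine synthetase, which joins methionine and ATP into the methyl donor of the cell. Of its 8 clones with values in all replicates, 7 were above 0 in every replicate and 1 below 0 in every replicate, and 2 passed. The first called clone had 2.25, 1.44 and 0.76, a mean of 1.48 (standard error 0.30, adjusted p = 0.0839), or 2.80-fold, and 1.10 from replicates 2 and 3. The second had 1.84, 0.65 and 0.92, a mean of 1.14 (standard error 0.28, adjusted p = 0.0988), or 2.20-fold, and 0.79 from replicates 2 and 3. With the dye term subtracted the second clone had a mean of 1.10, about as large, and an adjusted p of 0.107, just past the limit. The other 5 clones above 0 had means from 0.47 to 1.19 with adjusted p between 0.106 and 0.239. The remaining METK1 clone went the other way, with -0.80, -0.32 and -0.67 (mean -0.60, adjusted p = 0.169), so clones under one symbol did not share a direction on this array.

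MS, methionine synthase, which makes the methionine that METK1 uses, was above 0 in every replicate at all 5 of its clones. One passed, with 1.54, 0.50 and 1.14, a mean of 1.06 (standard error 0.26, adjusted p = 0.0988), or 2.09-fold, and 0.82 from replicates 2 and 3. With the dye term subtracted its mean was 0.99, about as large, and its adjusted p of 0.110 was just past the limit. The other 4 had means of 1.05, 0.97, 0.95 and 0.48. SHMT, serine hydroxymethyltransferase, which supplies one-carbon units, had 1.46, -0.55 and -0.29, so the sign of its mean (0.21) came from replicate 1. ARD, the acireductone dioxygenase of the methionine salvage pathway, had 0.49, 0.12 and 0.28 (mean 0.30, adjusted p = 0.402). This list of 4 genes was drawn up after the values were seen. None of its clones passed towards SD and its median was 0.99, beside 3.47% of all clones tested that passed towards LD and a median of 0.03.

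VPE2, a vacuolar processing enzyme, a protease that matures vacuolar proteins and acts in cell death, had the second largest mean among the called named clones. Its ratios were 3.0, 1.22 and 1.3, with a mean of 1.84 (standard error 0.36, adjusted p = 0.0775), or 3.58-fold, and every replicate exceeded 1. The mean of replicates 2 and 3 was 1.26. Among other defence genes, STWRKY8, a WRKY transcription factor, had 0.71, 0.08 and 0.47 (mean 0.42, adjusted p = 0.283). PR1B, a pathogenesis-related protein, had a value in replicate 1 alone (-1.06). The defence list thus had 1 of 2 tested clones passed towards LD, too few to set against the 3.47% of all clones.

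PHA2, a plasma membrane proton pump that powers uptake across the membrane, missed the limit at all 3 of its clones, although each was above 0 in every replicate. The clone with the largest mean had 3.19, 0.22 and 1.64 (mean 1.69, adjusted p = 0.117), the next 2.40, 0.38 and 1.20 (mean 1.32, adjusted p = 0.113), and the last 1.52, 0.39 and 1.3 (mean 1.07, adjusted p = 0.104). The unadjusted p was at most 0.00843 for these clones. PHA1, the related pump, had 1.45, 0.11 and 0.09 (mean 0.55, adjusted p = 0.292), so that its size lay in replicate 1. None of the 4 clones of the membrane transport list passed, and their median was 1.20.

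**Figure D2:**
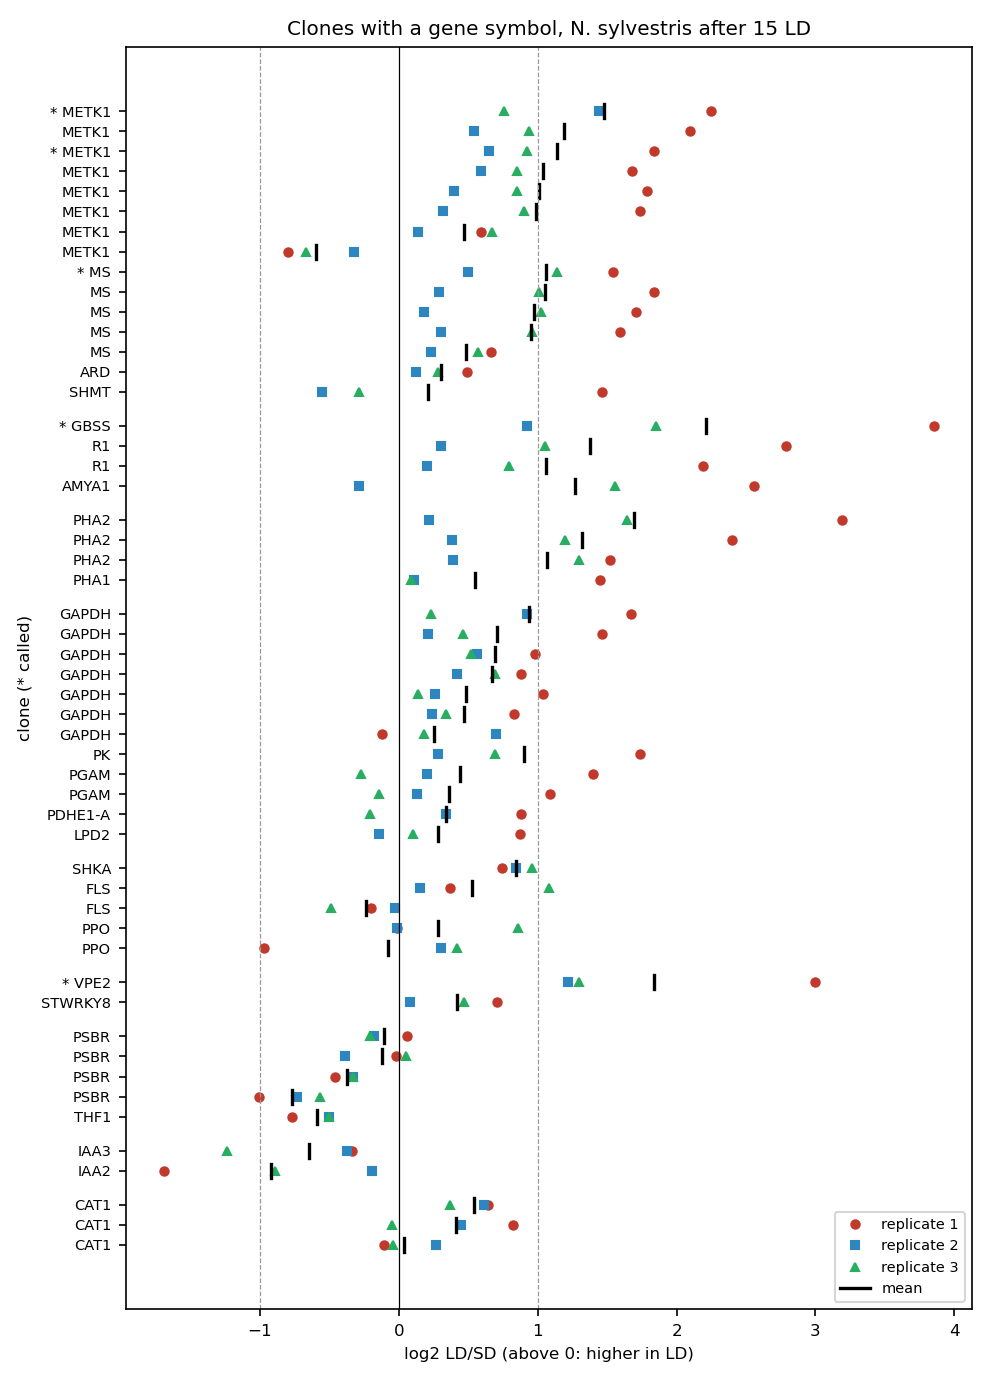
Log2 LD/SD ratios (horizontal axis) of clones with a gene symbol, grouped by role, in replicate 1 (red circles), replicate 2 (blue squares) and replicate 3 (green triangles), with the mean as a black bar, the 2-fold limits as dashed lines and called clones starred. Most METK1, MS, starch and proton pump clones lie right of 0, with 1 METK1 clone left of it in every replicate and AMYA1 on both sides, whereas PSBR, THF1, IAA2 and IAA3 have means left of 0.

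Of 12 clones of glycolysis and pyruvate oxidation, a list drawn up after the values were seen, none passed. Above 0 in every replicate were 7 of them, beside 40 of the 81 named clones. GAPDH, glyceraldehyde 3-phosphate dehydrogenase, had 6 of 7 clones above 0 in every replicate, with means from 0.25 to 0.94 and a median of 0.67. Its clone with the largest mean had 1.67, 0.92 and 0.23 (adjusted p = 0.135). PK, pyruvate kinase, had 1.74, 0.28 and 0.69 (mean 0.90, adjusted p = 0.147). TK, transketolase of the Calvin and pentose phosphate cycles, had 2.36, -0.10 and 0.16 at one clone and 1.42, 0.02 and 0.29 at the other, both near 0 outside replicate 1. PGAM, phosphoglycerate mutase, was above 1 in replicate 1 (1.40 and 1.09) and below 0 in replicate 3 (-0.27 and -0.14). LPD2, a dihydrolipoamide dehydrogenase, had 0.87, -0.14 and 0.10 (mean 0.28, adjusted p = 0.514), and PDHE1-A, a subunit of pyruvate dehydrogenase, 0.88, 0.34 and -0.21 (mean 0.34, adjusted p = 0.434).

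The shikimate and phenolic genes were led by SHKA, the DAHP synthase that opens the route to aromatic amino acids. Its ratios were even, 0.74, 0.84 and 0.96, with a mean of 0.84 (standard error 0.21, adjusted p = 0.102), and missed the limit on the adjusted p and on size. FLS, flavonol synthase, had 0.37, 0.15 and 1.08 at one clone (mean 0.53) and -0.20, -0.03 and -0.49 at the other (mean -0.24). PPO, polyphenol oxidase, had -0.97, 0.30 and 0.42 at one clone (mean -0.08) and -0.01, -0.01 and 0.86 at the other (mean 0.28). F3H, flavanone 3-hydroxylase, the step before flavonols, had a value of 1.69 in replicate 1 alone. None of the 5 tested clones of this list passed, and their median was 0.28.

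PSBR, THF1, IAA2 and IAA3 had means below 0, and none of their clones passed. PSBR, a subunit of photosystem II, had 4 clones with means of -0.77, -0.37, -0.12 and -0.11. The lowest had -1.01, -0.73 and -0.57 (standard error 0.22, adjusted p = 0.118), below 0 in every replicate, and passed with the dye term subtracted (mean -1.0, adjusted p = 0.0827). The next had -0.46, -0.33 and -0.33, and the other 2 were of mixed sign, with -0.02, -0.39 and 0.05 and with 0.06, -0.18 and -0.21. THF1, needed for the formation of thylakoids, had -0.77, -0.50 and -0.50 (mean -0.59, adjusted p = 0.162). IAA2 and IAA3, Aux/IAA repressors of auxin-responsive genes, had -1.69, -0.19 and -0.89 (mean -0.92, adjusted p = 0.143) and -0.34, -0.37 and -1.24 (mean -0.65, adjusted p = 0.178). The large dye term of IAA2, 0.41 towards the dye of the SD sample, moved its mean to -0.51 once subtracted. Of the 5 named clones with an unadjusted p towards SD, 4 are thus PSBR, THF1, IAA2 and IAA3, and the other is the METK1 clone with the opposite sign.

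No redox, signalling or flowering gene passed, and several lacked values. CAT1, catalase, had means of 0.54, 0.41 and 0.04 at its 3 clones, the first of them with 0.64, 0.61 and 0.37 (adjusted p = 0.178), or a mean of 0.94 (adjusted p = 0.0921) once its dye term of 0.40 was subtracted. DHAR, dehydroascorbate reductase, had 0.11 in replicate 2 alone, and DHAR2 had -0.10 and -0.91 in replicates 1 and 3 at one clone and 0.97 and -0.04 at the other. AOX, the alternative oxidase of mitochondria, had -1.26 in replicate 1 and 0.02 in replicate 3. PKIN1, a kinase of energy sensing, had 0.97, -0.04 and 0.25 (mean 0.39, adjusted p = 0.360). IPMK, an inositol polyphosphate kinase, had -0.14, 0.33 and -0.05 (mean 0.05, adjusted p = 0.911), the named clone of its list nearest to 0. The 14-3-3 gene 16R had -0.66, 0.04 and 0.00 (mean -0.21, adjusted p = 0.596). BEL5, a homeodomain factor whose mRNA moves from leaf to stolon in potato, had 1.13, -0.06 and 0.15 (mean 0.41, adjusted p = 0.374) at one clone and 2.01 and 0.64 in replicates 1 and 3 at the other. CO, the CONSTANS clone, had -1.02 in replicate 1 and -0.10 in replicate 2, with no value in replicate 3, and was not tested.

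In all, 36 named clones had a value in only 1 or 2 of the replicates, and 17 named genes had none. For the named clones not described above the means lay between -0.51 for TOM20, a mitochondrial import receptor, and 0.74 for BRP1, whose ratios were 0.60, 0.80 and 0.83 (adjusted p = 0.119). The lists for protein synthesis and protein turnover matched no clone with a value on any array of the series. Those for the cell wall and for tuber or flower markers had no clone with a value in all 3 replicates. The leaf label therefore could not be checked by other organs' markers.

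The 30 called clones with a locus number came from 21 loci and were all higher in LD, with means from 1.04 to 2.56. The potato locus LOC102601725 accounted for 6 of them. Of its 8 tested clones, 7 were above 0 in every replicate, and the called ones had means between 1.45 and 1.91. Its top clone had 2.65, 1.53 and 1.56 (mean 1.91, standard error 0.28, adjusted p = 0.0501), or 3.77-fold, and 1.55 from replicates 2 and 3. Its clone with the lowest mean had -0.47, -0.07 and -0.36 (mean -0.30). LOC102596978 had the largest mean of the called clones with a locus number, with 3.29, 1.58 and 2.80 at one clone (mean 2.56, standard error 0.33, adjusted p = 0.0501), or 5.88-fold, and 2.17, 0.80 and 1.72 at its other clone (mean 1.56, adjusted p = 0.0661). Both tested clones of LOC102577429 were called, with means of 1.66 and 1.67 and no single ratio below 1.12. LOC102577512 had 5 of 5 clones above 0 in every replicate and 2 called, with means from 0.25 to 1.98. LOC102577446 had 2 of 7 clones called, 5 above 0 in every replicate and means from -0.13 to 1.20. LOC102600029 had ratios of 1.23, 1.57 and 1.46 (mean 1.42), with replicate 1 the lowest, unlike most called clones. The sources used here give no description of these loci.

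The extremes of the table carry no gene name. The largest mean belonged to the clone at spot 134874, with 3.64, 1.49 and 2.74 (mean 2.62, standard error 0.38, adjusted p = 0.0501), or 6.17-fold higher in LD. At the other end, the clone at spot 158627 had -3.22, -0.73 and -2.90 (mean -2.29, standard error 0.45, adjusted p = 0.0775), or 4.87-fold higher in SD. The clone at spot 142683 followed with -3.90, -0.44 and -2.39 (mean -2.24, adjusted p = 0.0988), and its mean from replicates 2 and 3 was -1.42.

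A dye term was read from the only potato pair with exchanged dyes, as Cy3 over Cy5 on the array in the usual dyes. As deposited, the arrays of this pair correlated at an r of 0.784. With dyes exchanged, an r below 0 would be due if both ran Cy3 over Cy5, so that direction cannot hold for both. Whether it holds for the N. sylvestris arrays was not tested. The dye term had a median of 0.01 over the clones tested, -0.04 among those called higher in LD (Cy5) and 0.16 among those called higher in SD (Cy3). With this term subtracted 83 clones were called, 68 higher in LD and 15 higher in SD, and 75 of them were among the 114. GBSS (mean 2.41, adjusted p = 0.0746), VPE2 (mean 1.75, adjusted p = 0.0746) and the first METK1 clone (mean 1.37, adjusted p = 0.0827) stayed called. Scaling the arrays to a common spread left the calls at 92 and 23, with 94 of the 114 among them, but raised the clones that passed the test before the size limit from 105 to 446 towards LD and from 25 to 229 towards SD. In that setting the PHA2 clones had adjusted p of 0.0298, 0.0210 and 0.0298, those of R1 0.0273 and 0.0497, and SHKA 0.0319, so these genes passed there, with means of 0.74 to 1.22. Of the 81 named clones, 26 passed towards LD and 5 towards SD in that setting.

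The ratios after 15 LD were next set against those after 1 LD, from plants of the same species. Replicate 1 of 1 LD correlated below 0 with replicates 2 and 3 of its own day (r of -0.307 and -0.200), and whether that array was turned or exchanged could not be settled, so each value below that uses it is open to this doubt. Among the 79 of the 94 clones higher in LD that had values on all 1 LD arrays, the median mean ratio was 0.48 after 1 LD, and the medians by array were 1.38, -0.04 and 0.02 in replicates 1, 2 and 3. Replicate 1 had the highest median at both days. No clone differed between the days without the replicate number in the fit (0 of 2314 called, 103 or 4.45% with an unadjusted p of 0.05 or less). With the number as a block, 87 clones (3.76%) were called more LD-directed after 15 LD and 31 (1.34%) less so. The block is given because arrays with the same number deviated together from the means of the 2 days, with r of 0.856, 0.716 and 0.604. Replicates 2 and 3 also did so across numbers (r of 0.378 and 0.436). In the ratios themselves, 15 LD replicates 2 and 3 correlated at 0.247 and 0.301 with the same-numbered 1 LD arrays. With 1 LD replicate 1 they correlated at 0.332 and 0.482, so pairing by number was clear for replicate 1 alone. Whether arrays with the same number shared SD control RNA was not tested.

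Of 62 named clones tested, 6 differed with the block, from the proton pump, starch, methionine, protease and glycolysis groups. VPE2 went from 1.74, -0.92 and -1.69 after 1 LD to the values above, a difference of 2.13 (adjusted p = 0.00929 with the block and 0.665 without). R1 had 1.41, -1.68 and -0.09 at one clone and 0.77, -1.45 and -0.78 at the other after 1 LD, with differences of 1.5 and 1.55 (adjusted p = 0.00929 each with the block). PHA2 had 2.18, -1.01 and 0.35 after 1 LD at its top clone and a difference of 1.18 (adjusted p = 0.00929 with the block). One MS clone differed by 1.02 and PK by 1.15 (adjusted p = 0.0110 and 0.0101 with the block). In each of these 6 clones the ratio was higher after 15 LD than after 1 LD in 3 of 3 same-numbered arrays. That follows largely from their choice by the fit with the block on these arrays, and it adds no further support. With the doubted array left out, and no block, the differences were 3.15 for VPE2, 2.26 and 2.18 for R1, 2.02 for PHA2, 1.49 for MS and 1.68 for PK (adjusted p of 0.104 to 0.135). With its sign turned they were 3.29, 2.44, 2.06, 2.63, 1.67 and 1.69 in the same order (adjusted p of 0.0594 to 0.0636). The METK1 clone with the opposite sign had -0.77, -0.66 and -0.73 after 1 LD, and the difference of 0.12 was not called (adjusted p = 0.649 with the block). GBSS had 0.67 and 0.86 in replicates 1 and 2 after 1 LD and no value in replicate 3, so its difference was not tested.

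The response of N. sylvestris to 15 LD was also compared with that of MM tobacco to 15 SD, the flower-inducing change for each plant, both as LD/SD ratios. The difference of the ratios was called for 178 of 2858 clones (6.23%), 68 above 0 (2.38%) and 110 below 0 (3.85%). LD was in Cy5 in N. sylvestris and in Cy3 in MM, so a dye effect in either group moves this difference the same way and adds up. The median dye term was 0.45 among the 110 clones below 0 and -0.09 among the 68 above 0. With it subtracted 3 clones were called, although 70 of 174 with a dye term still differed by at least 1 in the same direction. Of the 2858 clones, 187 were below 0 in every N. sylvestris replicate and above 0 in every MM replicate, and 90 of these were called for the difference. The reverse held for 128, of which 42 were called. In N. sylvestris alone, 24.0% of 3028 clones were below 0 in every replicate and 29.4% above 0.

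Of 79 named clones tested against MM, 4 were called. Where their ratios did not overlap, that follows largely from the call on these same arrays and adds no further support. PPO had ratios of -0.97, 0.30 and 0.42 in N. sylvestris and 1.88, 2.34 and 1.73 in MM, with no overlap and a difference of -2.06 (standard error 0.40, adjusted p = 0.0512). Subtraction of its dye term, 0.49, left -1.08 (adjusted p = 0.277). IPMK had -0.14, 0.33 and -0.05 against 0.80, 1.68 and 1.26, a difference of -1.20 (adjusted p = 0.0836), which became -1.63 with the dye term subtracted (adjusted p = 0.162). The METK1 clone with the opposite sign was below 0 in all N. sylvestris replicates and above 0 in MM (0.79, 0.86 and 0.37), with a difference of -1.27 (adjusted p = 0.0572). The first called METK1 clone had 0.34, -0.39 and -0.03 in MM, all below the lowest ratio in N. sylvestris, and a difference of 1.51 (adjusted p = 0.0846). With the dye term subtracted it was 1.28 (adjusted p = 0.241), and the former METK1 clone had no dye term. Without replicate 3 of N. sylvestris or of MM no clone was called, and without replicate 2 of either there were 1 and 8.

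**Figure D3:**
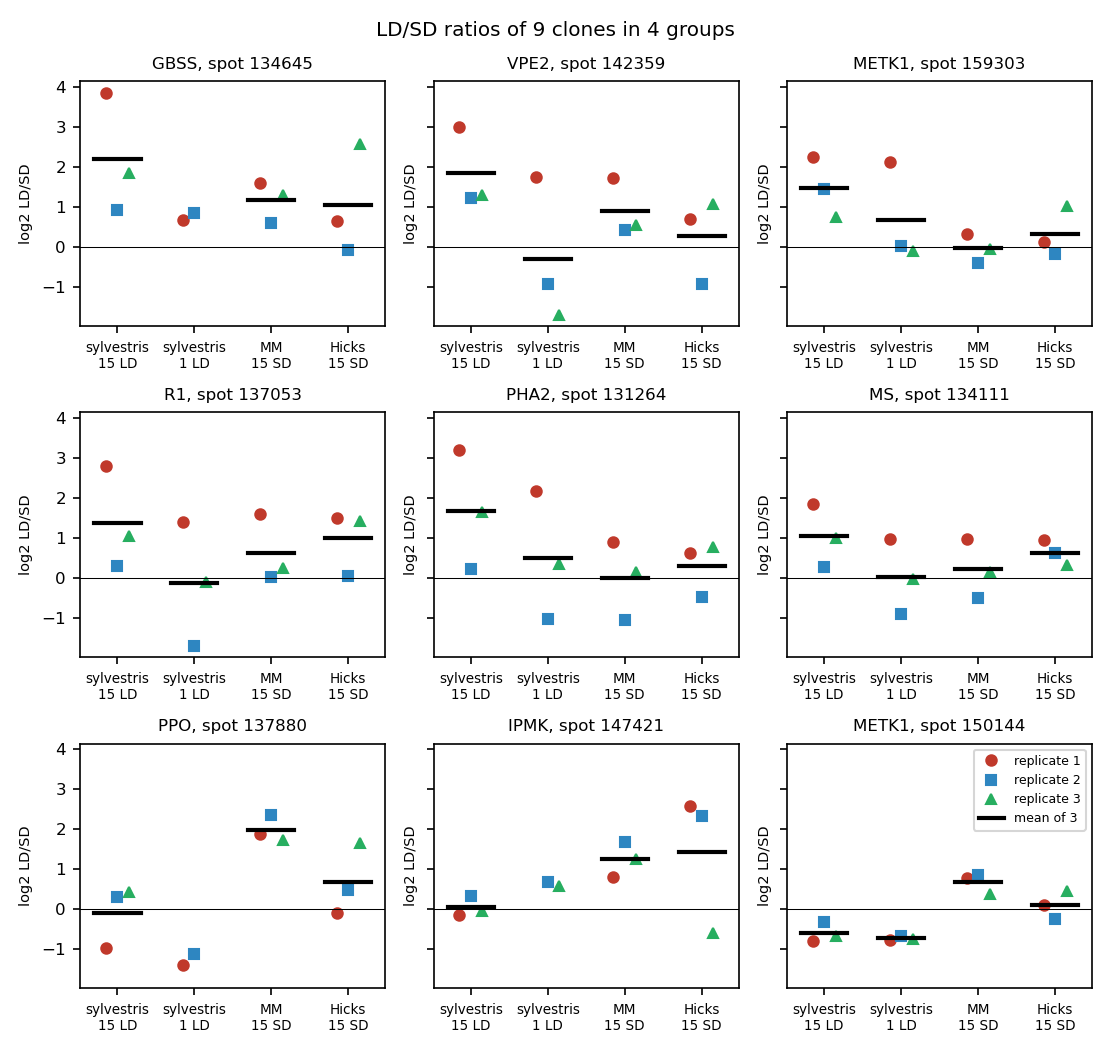
Log2 LD/SD ratios (vertical axis) of 9 clones in N. sylvestris after 15 LD and after 1 LD and in MM and Hicks after 15 SD, with replicates 1, 2 and 3 as red circles, blue squares and green triangles and the mean of 3 as a bar, omitted where an array has no value. VPE2, R1, PHA2 and MS lie higher after 15 LD than after 1 LD in each same-numbered pair, and PPO, IPMK and 1 METK1 clone lie lower than in MM. These clones were picked because fits on these same arrays called those differences.

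Against Hicks, which flowers without regard to day length, no clone was called (0 of 2864), with 366 (12.8%) at an unadjusted p of 0.05 or less. GBSS had 0.66, -0.07 and 2.57 in Hicks after 15 SD, and the difference of 1.15 (standard error 0.77, adjusted p = 0.538) lay within the spread. VPE2 had 0.70, -0.91 and 1.07, with a difference of 1.56 (standard error 0.58, adjusted p = 0.359). IPMK had 2.57, 2.32 and -0.58, with replicate 3 apart from the others. A fit with the spread shared over all arrays called 78 clones, and without replicate 2 of N. sylvestris 6 were called.

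The clones called in N. sylvestris are shown on the other arrays as medians only. For the 94 clones higher in LD the medians were 0.84, -0.04 and 0.53 in MM, 0.53, 0.23 and 0.64 in Hicks and 0.04, 0.12 and 0.17 in potato after 15 SD. For the 20 clones higher in SD they were -0.38, -0.11 and 0.16 in MM, -0.20, -0.16 and -0.41 in Hicks and 0.89, 0.59 and 0.43 in potato. All 20 clones had values on the potato arrays, where LD was in Cy3. The part of the dye in these values was not tested.

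**Figure D4:**
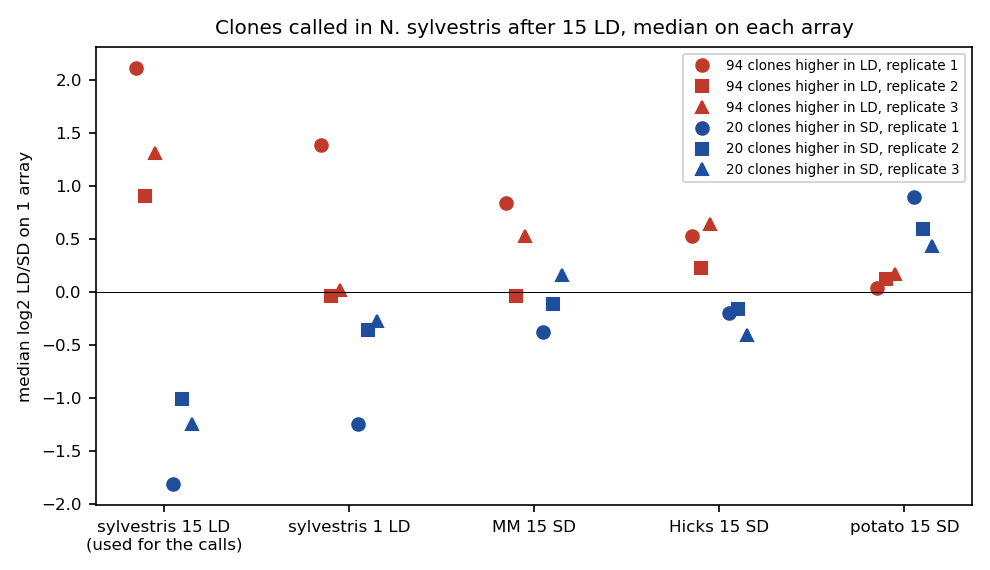
Median log2 LD/SD ratio (vertical axis) on each array for the 94 clones called higher in LD (red) and the 20 called higher in SD (blue) after 15 LD, with replicates 1, 2 and 3 as circles, squares and triangles. Only the N. sylvestris arrays after 15 LD were used for the calls. After 1 LD replicate 1 stands at 1.38 and replicates 2 and 3 near 0 for the red clones, and the blue clones are above 0 on the potato arrays.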

How the data were processed

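The authors hybridised leaf RNA to the TIGR potato cDNA array, normalised spots by LOWESS and deposited log2 ratios; the submitters' processing notes name limma, with the version not given in the sources used here. Every value is the log2 of a ratio with 2 decimals. Of 32448 spots, pairs were found from the print layout (15360, among them all 905 annotated pairs) and averaged, which gave 10684 clones with a value. Symbols came from a platform annotation of 1810 probes, 1630 with 1 gene and 180 with several, none of which was used for names. Mean ratios and differences were tested with lmFit and eBayes (R 4.3.3, limma 3.58.1) on clones with a value on every array. The scripts were tested on simulated data. Alternatives were the methods' t-test, other limits, centring, scaling, missing values, both spots, variance models, the dye term, replicate blocks, pooled days and left-out replicates. Array weights and 1 turned array were added after seeing the data. Members, lists and rules were chosen with earlier results of these data known, and the lists for the methionine cycle, glycolysis and proton pumps were added after these values were seen. Named genes are the 10 called clones of largest mean in each direction, called clones with a symbol, list members and a set of crossing genes; most of the first are unnamed and 3 are given. Replicates are separate biological samples by the methods. The number of arrays limits the precision.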

Additional observations from a re-analysis of the deposited data

Results flagged for a closer look

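Between groups, 4 named clones differed (N. sylvestris after 15 LD and MM after 15 SD) by the test of the difference: PPO (-2.06), IPMK (-1.20) and METK1 at 2 clones (-1.27 and 1.51). These are 4 of 79 named clones, beside 6.23% of all clones tested, and none of the 3 with a dye term stayed called once it was subtracted. With the replicate number as a block, 3.76% of all clones tested were called more LD-directed after 15 than after 1 LD, and 1.34% less so. Of 62 named clones, 6 were called there: VPE2 (2.13), R1 (1.55 and 1.5), PHA2 (1.18), PK (1.15) and MS (1.02). Without the block none of them was called, and all of them use the doubted replicate 1 of 1 LD.

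Some clones had opposite signs in every replicate of both groups. One MS clone was above 0 after 15 LD and below 0 after 1 LD, with a difference of 0.83 (adjusted p = 0.665 without and 0.0150 with the block, under 1 in size). Its ratios after 1 LD were -0.21, -0.58 and -0.26, the first of them on the doubted array. With that array turned, the signs were no longer opposite in every replicate and the difference was 0.70 (adjusted p = 0.135 without the block). The share of such clones among all those tested between the days was not counted. Against MM, opposite signs in every replicate held for SS16 (1.04, adjusted p = 0.135), PPA1 (0.73, adjusted p = 0.267), FLS (-0.46, adjusted p = 0.351) and, as above, METK1 (-1.27). These came from 79 named clones tested against MM. Over all 2858 clones tested, 128 were above 0 in N. sylvestris and below 0 in MM in every replicate, and 187 the reverse, so the pattern was not particular to named clones. The FLS difference became 0.19 with the dye term subtracted.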

How the results depend on the processing

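Counts of called clones moved with most settings. The 94 clones higher in LD became 0 with the methods' t-test under either adjustment, 0 at an adjusted p of 0.05, 29 with centred arrays, 202 with values on at least 2 arrays, 50 with both spots required, 61 with robust variance, 162 with the spread shared over all arrays, 26 with both days pooled and 1 with both days pooled and a random replicate block. The 20 clones higher in SD became 0 with the t-test under either adjustment, 0 at 0.05, 8 with centring, 64 with at least 2 arrays, 10 with both spots, 37 with shared spread, 53 with array weights, 0 with pooled days and a random block, and 33 with both days and the replicate block. Leaving out a replicate gave 0 to 329 higher in LD and 0 to 129 higher in SD, with the upper ends from a fit whose p followed the mean ratio. Of the 47 clones taken by the naming rule that passed, some without a symbol, 0 reversed where they could be fitted (40 with both spots, 43 with both days, 47 otherwise), 47 still passed with scaled arrays and 0 without replicate 1.

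The replicate block raised the difference between 15 and 1 LD from 0 to 118 clones. Turning 1 LD replicate 1, which ran against the other arrays of its day, raised it to 508. Pairing of these days by replicate number was clear only for replicate 1, whose 1 LD array is in doubt. By deviations from the group means, replicate numbers did not pair N. sylvestris with MM (r of 0.633, 0.306 and -0.090) or Hicks (0.053, 0.205 and -0.062). There the block gave 350 against 178 and 32 against 0. The difference from MM was 54 and 0 with the t-test and a q-value or Benjamini-Hochberg adjustment, 15 at 0.05, 0 with at least 2 arrays, 317 with shared spread, 3 with the dye term subtracted, 277 with the N. sylvestris sign turned (METK1 then -1.46 in place of 1.51) and 0 to 141 with a replicate left out. That from Hicks was 78 with shared spread, 346 with the sign turned and 0 to 6 with a replicate left out. The cause of these shifts was not tested. The precision is limited by the number of arrays, and signal over background is unknown.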
